A study of Mus musculus with 8 samples.

Results

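The complement, coagulation and serpin genes described here are 46 genes for proteins that the liver secretes into blood, or that act beside them on cell surfaces. They were chosen by name, and their probes were found by matching the accession of each array probe to a gene symbol. They account for 63 of 39429 probes and 46 of 21612 named genes. Their expression was measured in AML12, an established line of mouse hepatocytes, after 24 h with 0.5 µg/ml irisin, the peptide cleaved from Fndc5, or after 24 h without it. Each group had 4 arrays, and both groups were grown in the same serum-containing medium. The comparison asks which of these genes differed in transcript level between irisin-treated and control cells. Levels are log2 signals after division by the array's 75th percentile, so 0 marks the percentile itself and a difference of 1 is a doubling. Levels of different probes are not comparable with each other, and only differences between groups are read.

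Complement is a cascade of plasma proteases in which bound recognition molecules or spontaneous turnover lead to cleavage of C3, then of C5, and to assembly of a pore from the terminal components. Coagulation is a second cascade, in which tissue factor or surface contact activates a chain of zymogens that ends in thrombin and fibrin. Serpins are inhibitors that trap proteases in a covalent complex and hold both cascades in check. Hepatocytes make most of these proteins, and many of the genes respond to inflammatory cytokines as part of the acute phase.

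Of the 46 genes, 32 (69.6%) had a probe that could be tested, that is, one well above background on every array of at least 1 group, beside 66.2% of all named genes. No member passed both thresholds (a 1.5-fold change and an adjusted p under 0.05 from limma) upwards, and 4 passed them downwards, F9, Hc, Klkb1 and Tfpi. Across the 14310 genes tested, 0.531% were called higher and 10.2% were called lower, so the 12.5% of members called lower was near the background. The median change was 0.026 over the 32 members and -0.064 over all genes tested, on the log2 scale, with 17 members above 0 and 15 below. The adjusted p alone was passed by 2 members upwards (F11 and Fga) and 5 downwards (the 4 called and Clu), beside 2.65% and 17.9% of all genes. The irisin and control arrays did not overlap for the same 2 members upwards and 5 downwards, beside 4.16% and 19.7% of all genes. An unadjusted p under 0.05 was also found for 2 members upwards and 5 downwards, beside 5.94% and 23.5% of all genes. For 25 members the change lay between -0.22 and 0.25 and the lowest adjusted p was 0.151.

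**Figure D1:**
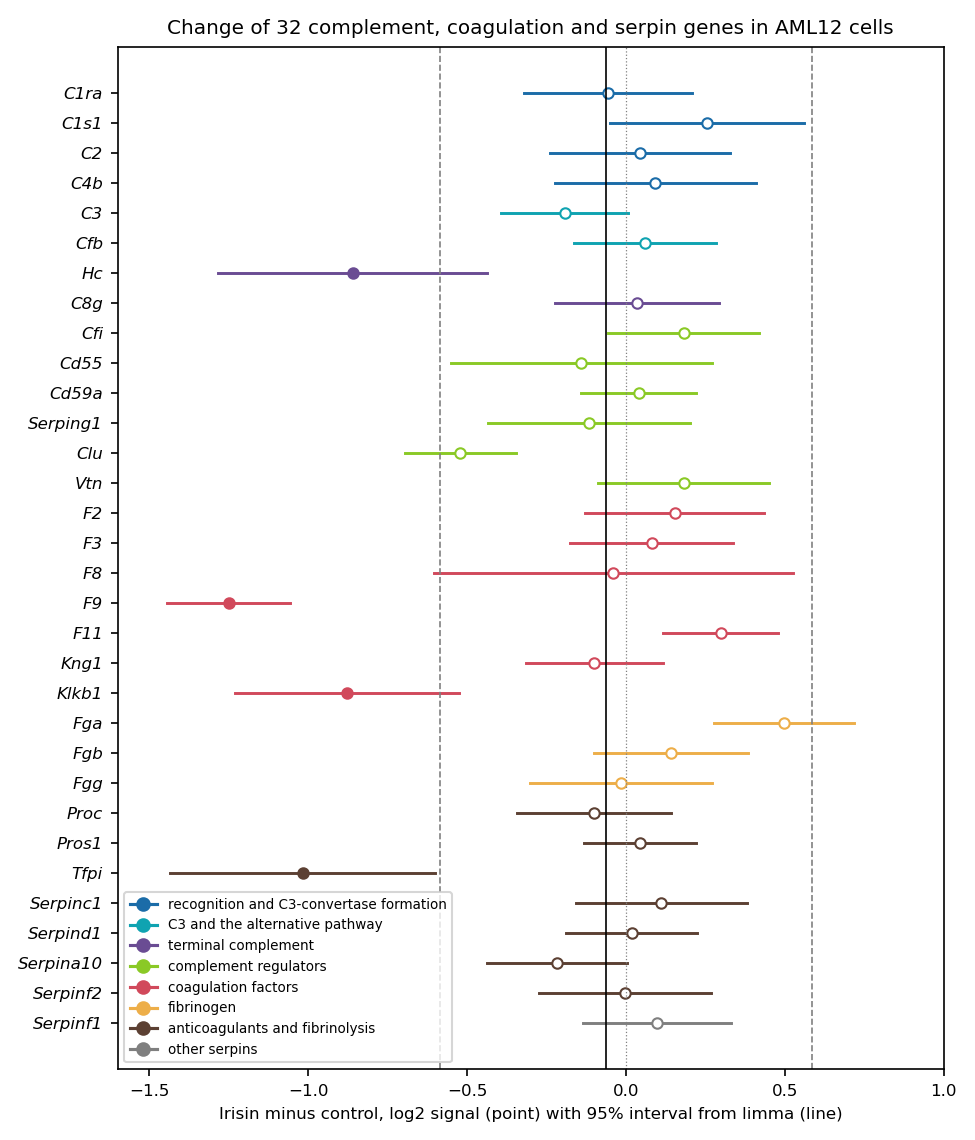
Difference between irisin and control arrays on the log2 scale for the 32 members tested, ordered and coloured by role, with the 95% interval from limma. Filled points are the 4 genes called lower, the dashed lines mark 1.5-fold, and the solid line marks the median of all genes tested at -0.064. Most intervals lie between the dashed lines, and F9, Tfpi, Klkb1 and Hc stand to the left.

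The depth of the signal sets how these calls can be read. The control arrays had a 75th percentile of processed signal of 472 ± 70.1 (SD, n = 4) and the irisin arrays one of 783 ± 71.6, with no overlap. Control arrays lay on slide 1 and irisin arrays on slide 2, each scanned together, so treatment cannot be told apart from slide or scan. The labels do not say that replicates are separate cultures, so the p-values measure the spread between these samples, which may be technical. The 12633 probes above background on none of the arrays had a median change of -0.76 on this scale, and of -0.025 with no scaling. Of the genes in the 3 dimmest deciles of signal, 31.6% were called lower, against 1.01% in the 7 brighter deciles. The 4 members called lower were among the 13 in the dim deciles, and none was among the 19 in the brighter ones. At the other end, all 143 genes of the brightest 1% were below 0, with a median change of -0.39.

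**Figure D2:**
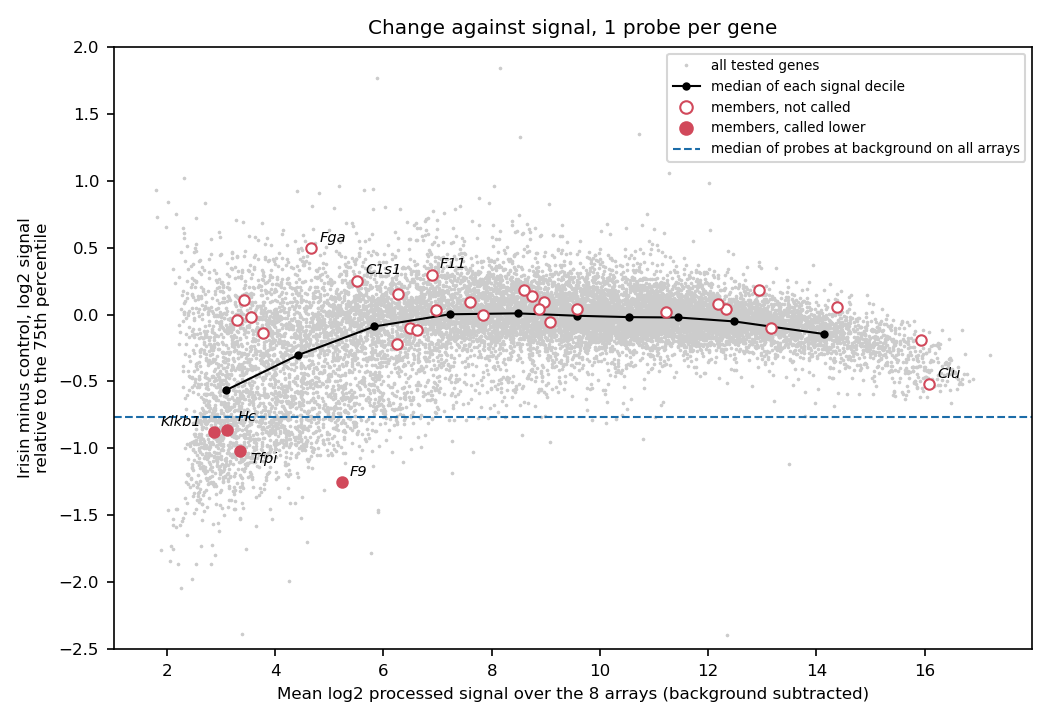
Change (irisin minus control, log2) against mean log2 processed signal for all tested genes in grey and the 32 members in red, with the median of each decile of signal in black. The dashed line is the median change of -0.76 of probes at background, which Hc, Klkb1 and Tfpi lie near, while F9 lies below it and Clu lies in the falling tail of the brightest genes.

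The cells carried the transcripts of their labelled type. All 10 hepatocyte markers, among them Alb, Ttr and Hnf4a, were detected on all 8 arrays. Among markers of other liver cells, 2 of 6 for macrophages (Csf1r and Cd68), 1 of 6 for stellate cells (Col1a1), 2 of 6 for endothelium (Pecam1 and Kdr) and 1 of 4 for platelets (Pf4) were above background on all arrays. Of the others, 5 stellate, 3 endothelial and 2 platelet markers were above background on none, among them Cdh5, Lyve1, Tek, Pdgfrb, Lrat and Gp9. Every macrophage marker was above background on some array, Ptprc on 5, Adgre1 and Clec4f on 3 each and Cd5l on 1. Itga2b was above it on 4 and Stab2 on 2. The summed linear level of the endothelial list was 0.703 to 0.790 times the 75th percentile on control arrays and 0.414 to 0.585 on irisin arrays, and that of the macrophage list was 0.540 to 0.648 and 0.457 to 0.542. The hepatocyte list also summed lower, at 448 to 499 and 363 to 427. Such a sum is set mostly by its brightest probes, so it does not describe a whole list. The brightest were Kdr for endothelium (-0.56, not called) and Krt18 (-0.47) and Trf (-0.39) for hepatocytes. For macrophages they were Cd68 (0.0062) and Csf1r (-0.49, not called). Of the 10 hepatocyte markers 4 were above 0, among them Alb (0.11) and Apob (0.24), and 6 below. Pecam1 was called lower by 0.61 on the log2 scale (adjusted p = 0.00214). The part of these markers in the results was not tested, and in bulk RNA fewer cells of a type cannot be told from less RNA per cell.

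In the classical and lectin pathways, 4 of 6 members were tested and none was called. C1r and C1s are the proteases of the first complement component, and C2 and C4 are the proteins they cleave to form a C3 convertase. C2 was between 2.80 and 3.30 on control arrays and between 2.99 and 3.29 on irisin arrays, a change of 0.044 (95% interval -0.24 to 0.33). C4b gave 0.093 and C1s1 0.25, both with overlapping arrays and with adjusted p of 0.712 and 0.229. C1ra gave -0.057 on its brighter probe (adjusted p = 0.790) and 0.30 on its second (adjusted p = 0.0492, a 1.23-fold difference). Near-identical copies of C1ra, C1s1 and C4b lie beside them in the mouse genome, so their signals may be shared with C1rb, C1s2 and C4a. The lectin-pathway protease Masp1 and the lectin Mbl2 were above background on none of the arrays.

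C3, the protein on which all complement routes converge, and Cfb, the protease of the alternative convertase, were both tested. C3 was at 6.73, 6.68, 6.88 and 6.92 on the control arrays and at 6.59, 6.72, 6.49 and 6.63 on the irisin arrays. The arrays of both groups overlapped, and the change of -0.19 (SE 0.090, 95% interval -0.39 to 0.0060) had an adjusted p of 0.159. C3 was also among the brightest 1% of genes, all of which were below 0. Its second probe gave -0.11, and the difference between both probes did not separate the groups (0.087, exact permutation p = 0.0571, adjusted over 8 probe pairs to 0.0762). Cfb gave 0.059 (95% interval -0.16 to 0.28). Cfd, the protease that activates factor B, was above background on none of the arrays.

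Among the terminal components, Hc, the mouse gene for complement C5, was called lower. Hc was at -5.81, -5.75, -5.80 and -5.41 on the control arrays and at -7.19, -6.28, -6.36 and -6.38 on the irisin arrays. Every irisin array was below every control array, and irisin replicate 1 was the lowest. The change was -0.86 (SE 0.19, 1.82-fold lower, adjusted p = 0.00696, exact permutation p = 0.0286, the smallest that 70 assignments can give). Hc lay in the dimmest decile of signal, where 48.1% of genes were called lower and the median change was -0.57. With quantile normalization its change was -0.35 (adjusted p = 0.177), so the call ended.

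C8g, the lipocalin-like chain of C8, was the only other terminal component tested, and its probes disagreed. Its brighter probe gave 0.034 (adjusted p = 0.877). Its second probe was at -4.04, -4.10, -3.77 and -3.88 on control arrays and at -4.56, -4.58, -4.79 and -4.53 on irisin arrays. The groups did not overlap on that probe, and the change of -0.67 (SE 0.10, adjusted p = 0.000771) passed both thresholds, which 11.7% of all probes did downwards. It was -0.44 with quantile normalization, under 1.5-fold, and 0.071 with no scaling. The within-array difference between the 2 probes, which a single scaling factor per array leaves as it is, moved by -0.70 (exact permutation p = 0.0286, adjusted to 0.0457). It is not free of a change that depends on signal, and the second probe was the dimmer, with a mean signal of 31.5 against 131. With normexp background correction the second probe gave 0.26 and the brighter 0.31. C8a, C8b and C9 were above background on none of the arrays and C6 on 1.

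All 6 complement regulators were tested and none was called. Clu, clusterin, a secreted chaperone that also blocks the terminal pore, was at 7.18, 7.04, 7.09 and 7.11 on control arrays and at 6.57, 6.70, 6.54 and 6.53 on irisin arrays. The 2 groups were separated by 0.34 with little spread in either. The change was -0.52 (SE 0.079, 95% interval -0.70 to -0.35, adjusted p = 0.000768), which is 1.43-fold and under the fold threshold. Clu belongs to the brightest 1% of genes, whose median change was -0.39, and its own change was -0.13 with quantile normalization (adjusted p = 0.152), 0.048 under spike-in scaling and 0.22 when left unscaled. Its direction therefore depended on the scaling.

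The other regulators were within their spread. Cfi, the protease that degrades C3b and C4b, gave 0.18 (adjusted p = 0.272), and Vtn, vitronectin, which binds the nascent pore, gave 0.18 (adjusted p = 0.342). Cd55 and Cd59a, surface inhibitors of the convertases and of the pore, gave -0.14 (95% interval -0.55 to 0.27) and 0.041 (-0.14 to 0.22). Serping1, the serpin that inhibits C1r, C1s and plasma kallikrein, gave -0.12 on its brighter probe and 0.11 on its second, with adjusted p of 0.638 and 0.565.

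**Figure D3:**
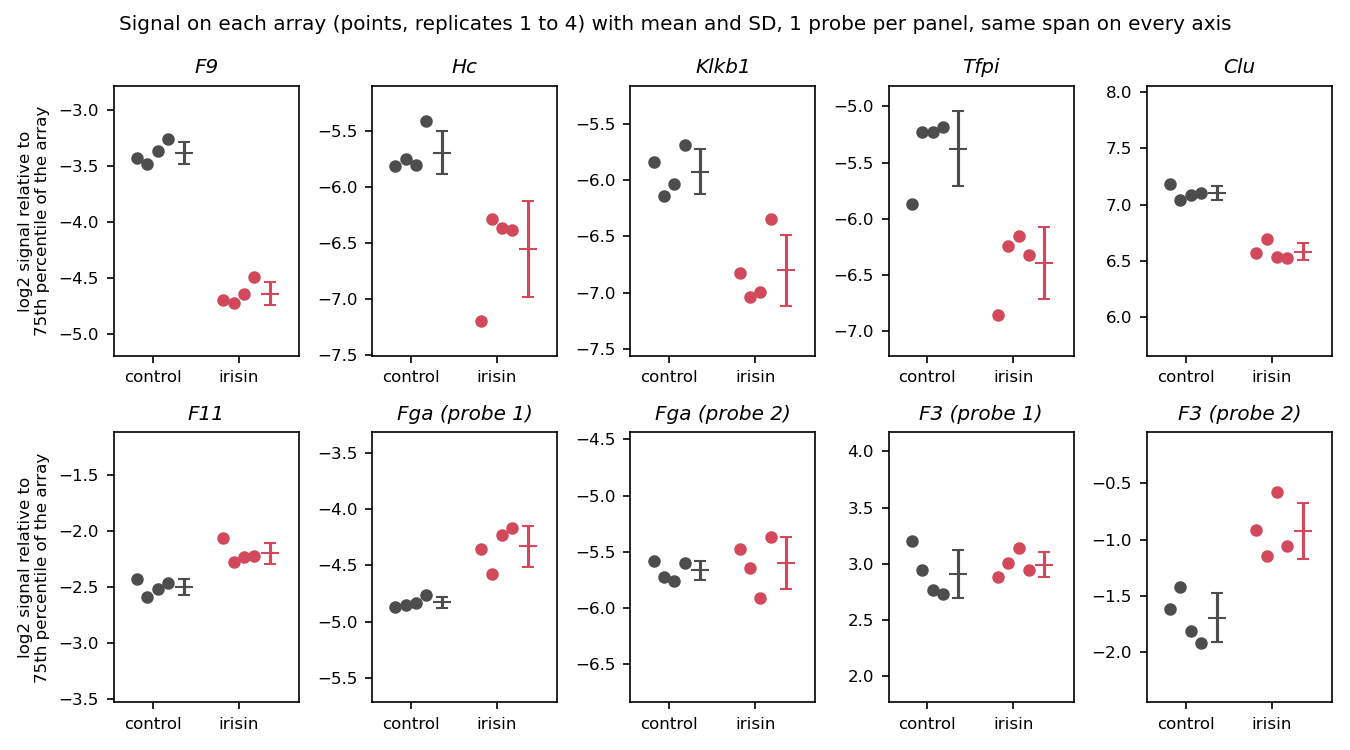
Log2 signal over the 75th percentile, on each of the 8 arrays (points), with mean and SD beside them, for 10 probes, drawn with the same span on each vertical axis. F9 shows the widest separation of these probes, and the second probes of Fga and F3 differ from the first.

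In the coagulation cascade, 7 of 12 factors were tested, and F9 and Klkb1 were called lower. F9 encodes factor IX, a vitamin K-dependent protease that, with factor VIII, activates factor X. F9 was at -3.43, -3.49, -3.37 and -3.26 on the control arrays and at -4.70, -4.72, -4.64 and -4.49 on the irisin arrays. The lowest control array was 1.01 above the highest irisin array. The mean fell from -3.39 ± 0.096 (SD, n = 4) to -4.64 ± 0.10, a change of -1.25 (SE 0.087, 95% interval -1.44 to -1.06), or 2.38-fold (adjusted p = 6.79e-05, exact permutation p = 0.0286). It was the largest change among the 32 members. Its decile of signal, number 3 from the bottom, had a median change of -0.089, with 13.9% of genes called lower.

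F9 was called lower under 5 of the 6 scalings tried, and the other 3 members under 2 of them. Quantile normalization gave -1.06, cyclic loess -1.03 and spike-in scaling -0.68, each past both thresholds. With no scaling it was -0.51 (adjusted p = 0.0114), under 1.5-fold. Leaving out single arrays gave -1.30 to -1.21. With normexp background correction it was 0.021, a setting under which no gene was called and whose fit gave background means of -306 and -395 on irisin replicates 2 and 4 against -10.7 to -8.06 on the others. Subtraction of the local background with an offset of 50 added gave -0.88, past both thresholds. That setting also lowered other dim probes, such as Cd55 from -0.14 to -0.46 and the second Fga probe from 0.066 to -0.495. Under it 22 of the 32 members were below 0, against 15 in the main setting. F9 was itself dim, with a mean signal of 38.5, so the -0.88 is not a separate check of its call.

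Klkb1 encodes plasma prekallikrein and F11 encodes factor XI, a related pair of contact-phase zymogens that lie next to each other on chromosome 8. Klkb1 was at -5.84, -6.14, -6.03 and -5.69 on control arrays and at -6.82, -7.04, -7.00 and -6.35 on irisin arrays. It was not well above background on 1 irisin array and so passed the filter only through the control group. Every irisin array was below every control array, and the change was -0.88 (SE 0.16, 1.84-fold lower, adjusted p = 0.00218, exact permutation p = 0.0286). It lay in the dimmest decile of signal, and with quantile normalization its change was -0.34 (adjusted p = 0.141).

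F11 went the other way. It was at -2.43, -2.59, -2.52 and -2.46 on control arrays and at -2.07, -2.28, -2.23 and -2.23 on irisin arrays, again with no overlap. The change of 0.30 (SE 0.082, adjusted p = 0.0212) was 1.23-fold and so was not called, and the adjusted p rose to between 0.0530 and 0.0687 without control replicate 2 or 3, or without irisin replicate 1 or 4.

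Because F9, F11 and Klkb1 gave the separated changes among the coagulation factors, the 250 bases before their RefSeq start (GRCm38.p6) are shown here, 5′ to 3′ on the strand of the gene. Capitals mark matches on either strand to 6 short motifs, and no 2 matches overlapped. The motifs were the core promoter box TATAAA, part of the binding site of HNF1 as GTTAAT, the C/EBP palindrome as TTNNGCAA, the AP-1 element as TGANTCA, the STAT element as TTCNNNGAA, and a consensus of NF-κB. RefSeq promoters were matched for 34 of the 46 members.
F9 promoter (chrX:59999214-59999463, + strand): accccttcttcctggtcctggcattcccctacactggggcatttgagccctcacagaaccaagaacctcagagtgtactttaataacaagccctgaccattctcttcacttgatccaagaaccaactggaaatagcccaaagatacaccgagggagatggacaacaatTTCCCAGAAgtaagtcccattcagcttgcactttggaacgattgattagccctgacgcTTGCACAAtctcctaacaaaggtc
F11 promoter (chr8:45262032-45262281, - strand): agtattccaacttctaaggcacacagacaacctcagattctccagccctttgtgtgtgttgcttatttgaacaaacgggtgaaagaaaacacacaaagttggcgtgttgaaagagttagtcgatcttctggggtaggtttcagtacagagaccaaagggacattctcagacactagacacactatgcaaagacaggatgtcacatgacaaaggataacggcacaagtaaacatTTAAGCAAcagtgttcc
Klkb1 promoter (chr8:45294836-45295085, - strand): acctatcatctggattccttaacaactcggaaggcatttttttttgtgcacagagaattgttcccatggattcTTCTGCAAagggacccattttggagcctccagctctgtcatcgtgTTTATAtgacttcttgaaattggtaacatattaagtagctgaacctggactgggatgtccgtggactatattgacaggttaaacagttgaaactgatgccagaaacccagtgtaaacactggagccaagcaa

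All 3 windows held a C/EBP match, which 9.56% of 32851 promoter windows of the same length have. It lay 17 to 24 bases before the start in F9, 10 to 17 in F11 and 170 to 177 in Klkb1. F9 also held a STAT match (7.02% of windows), and Klkb1 a TATAAA match on the other strand (12.4%). F9 and Klkb1 were called lower and F11 was not, and a match is a description of letters, not of binding. Of 14 transcription factors of liver and acute-phase genes, among them Hnf4a, Cebpa, Cebpb and Stat3, all were tested and none was called in either direction. Of all genes 0.531% were called higher and 10.2% lower, and 1.01% were called lower in the 7 brighter deciles. Among the 14, 11 were below 0. An unadjusted p under 0.05 from limma was found for 3 downwards, Onecut1 (-0.40), Nfkb1 (-0.25) and Nr1h4 (-0.20), beside 23.5% of all genes.

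F3, tissue factor, the receptor that starts coagulation, had probes that disagreed. Its brighter probe was at 3.20, 2.94, 2.77 and 2.73 on control arrays and at 2.88, 3.00, 3.14 and 2.94 on irisin arrays, a change of 0.081 (adjusted p = 0.686). Its second probe was at -1.62, -1.42, -1.81 and -1.92 on control arrays and at -0.91, -1.15, -0.58 and -1.06 on irisin arrays. Only on the second probe were all irisin arrays above all control arrays, and its change of 0.77 (SE 0.14, 1.71-fold, adjusted p = 0.00269) passed both thresholds, which 0.714% of all probes did upwards.

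The second probe of F3 was the 1 probe of any member called higher. It was called higher with each of the 6 scalings, from 0.76 to 1.51. The largest values came from spike-in scaling (1.34) and no scaling (1.51), which called 31.9% and 66.8% of all genes higher. Those settings therefore say little about this probe alone. With the remaining scalings, which called at most 2.15% of all genes higher, the change of this probe was 0.76 to 0.79. It was 0.52, under 1.5-fold, with background subtraction and an offset of 50, and 0.70 (adjusted p = 0.0940) with normexp. The within-array difference between the F3 probes moved by 0.69 (exact permutation p = 0.0286, adjusted to 0.0457). Both probes carry the same transcript accession, and the level of the gene as a whole is therefore uncertain.

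The F3 promoter is shown for contrast with the factors above, with the same marking.
F3 promoter (chr3:121723287-121723536, + strand): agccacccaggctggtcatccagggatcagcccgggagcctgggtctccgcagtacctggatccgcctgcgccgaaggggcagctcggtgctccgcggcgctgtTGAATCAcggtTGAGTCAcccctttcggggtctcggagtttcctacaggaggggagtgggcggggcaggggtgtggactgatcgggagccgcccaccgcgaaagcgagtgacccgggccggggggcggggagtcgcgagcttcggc

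It held 2 AP-1 matches, TGAATCA and TGAGTCA, at 140 to 146 and 129 to 135 bases before the start. An AP-1 match was found in 6.75% of promoter windows. None of the C/EBP, STAT or NF-κB letters occurred in this window.

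The other factors tested were within their spread. F2, prothrombin, gave 0.15 (95% interval -0.13 to 0.43), and Kng1, kininogen, the carrier of prekallikrein, gave -0.10 (-0.32 to 0.12). F8, the cofactor of factor IX, gave -0.039 with the widest interval of all members (-0.60 to 0.53). A 1.5-fold decrease lay inside that interval and a 1.5-fold increase did not. F13b was above background on none of the arrays, F10 and F12 on 1, F7 on 2 and F5 on 4. The single array for F10, the protease activated by factor IX, was irisin replicate 1, at -3.82 against -8.20 to -6.95 on the other 7.

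Fibrinogen, the clot protein, is built from an alpha, a beta and a gamma chain, whose genes Fga, Fgb and Fgg adjoin on chromosome 3. All 3 were tested and none was called. The brighter Fga probe was at -4.87, -4.85, -4.84 and -4.76 on control arrays and at -4.35, -4.58, -4.23 and -4.17 on irisin arrays. The groups did not overlap, and the change of 0.50 (SE 0.0995, adjusted p = 0.00381) was 1.41-fold. It passed both thresholds with quantile normalization (0.78) and cyclic loess (0.80), and was -0.20 (adjusted p = 0.0871) with background subtraction and an offset of 50. The second Fga probe was at -5.58, -5.72, -5.76 and -5.59 on control arrays and at -5.48, -5.64, -5.91 and -5.37 on irisin arrays, with a change of 0.066 (adjusted p = 0.755).

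Fgb and Fgg gave 0.14 (adjusted p = 0.417) and -0.016 (adjusted p = 0.950), so the 3 chains did not share a change that passed the test. Within arrays, Fga moved against Fgg by 0.51 and Fgb against Fga by -0.36, each with no overlap (exact permutation p = 0.0286, adjusted over 5 neighbouring pairs to 0.0714). The Fga promoter is printed because Fga was the member with the largest change upwards.
Fga promoter (chr3:83025903-83026152, + strand): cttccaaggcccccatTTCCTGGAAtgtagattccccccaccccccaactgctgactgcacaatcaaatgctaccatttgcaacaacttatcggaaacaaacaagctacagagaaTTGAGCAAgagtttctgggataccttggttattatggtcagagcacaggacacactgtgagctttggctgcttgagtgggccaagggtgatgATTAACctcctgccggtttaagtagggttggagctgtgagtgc

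It held a C/EBP match 128 to 135 bases before the start, a STAT match at 226 to 234, and a partial HNF1 site at 38 to 43 on the other strand, which 6.43% of windows have. The NF-κB letters were found in 1.41% of windows and in none of the 5 shown.

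Of the anticoagulant and fibrinolysis genes, 7 of 8 were tested and Tfpi was called lower. Tfpi encodes tissue factor pathway inhibitor, which blocks the complex of tissue factor with factor VIIa. Its brighter probe was at -5.87, -5.22, -5.23 and -5.18 on control arrays and at -6.86, -6.24, -6.15 and -6.32 on irisin arrays. Every irisin array was below every control array, with replicate 1 the lowest in both groups, and the change was -1.02 (SE 0.19, 2.02-fold lower, adjusted p = 0.00241, exact permutation p = 0.0286).

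The call of Tfpi did not extend to its other probes. A second probe was not well above background on any control array and was above it on all 4 irisin arrays, so that it passed the filter only through the irisin group, with means of -7.12 and -6.84, a change of 0.27 (adjusted p = 0.265), and its remaining probe was not above background on any array. With quantile normalization the first probe gave -0.55 (adjusted p = 0.0759) and the mean over the tested probes gave -0.37 (adjusted p = 0.112), so the call ended in both.

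Serpina10, the protein Z-dependent inhibitor of factor Xa, gave -0.22 on its brighter probe (95% interval -0.44 to 0.0027, adjusted p = 0.151). Its second probe was at -5.86, -6.33, -5.96 and -4.70 on control arrays and at -6.92, -6.94, -7.09 and -6.78 on irisin arrays, with control replicate 4 well above the rest. That probe changed by -1.22 (SE 0.28, adjusted p = 0.00871), and by -0.69 with quantile normalization (adjusted p = 0.148). Without single arrays it ranged from -1.43 to -0.88.

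The remaining inhibitors were close to 0. Serpinc1, antithrombin, gave 0.11 (95% interval -0.16 to 0.38). Serpind1, heparin cofactor II, gave 0.018, and Serpinf2, the inhibitor of plasmin, gave -0.0032. Proc and Pros1, protein C and its cofactor protein S, gave -0.10 (-0.34 to 0.14) and 0.044 (-0.13 to 0.22). Plg, plasminogen, was above background on none of the arrays. Of the 2 other serpins, Serpinf1, pigment epithelium-derived factor, gave 0.097 on its brighter probe (adjusted p = 0.583) and -0.033 on its second (adjusted p = 0.850). Serpina6, the corticosteroid-binding globulin of plasma, was above background on 1 array.

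Taking precision over the whole list, the standard error of a member's change was between 0.079 and 0.25 with a median of 0.12. For 25 of the 32 members the 95% interval lay inside 1.5-fold in both directions. The interval reached 1.5-fold for 7, the 4 called and Clu, F8 and Fga. Across 8 members with 2 probes well above background on all 8 arrays, the within-array difference between the probes separated the groups for 5, C1ra, C8g, F3, Fga and Serpina10. Of the 3579 genes with such probes, 22.7% were separated on their 2 brightest.

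A further 104 genes of complement, coagulation and protease inhibition that are not members were counted in the same fit. Of these 69 were tested, none was called higher and 6 (8.70%) were called lower, beside 10.2% of all genes, with a median change of -0.065. They were Cr2, a complement receptor of lymphoid cells, at -1.37, Hrg, histidine-rich glycoprotein, at -1.06, Spint1, an inhibitor of hepatocyte growth factor activator, at -1.04, C1qb, a chain of C1q, at -1.0, Itih1, a heavy chain of the inter-alpha inhibitor, at -1.0, and Cfhr2, a factor H-related protein, at -0.78. Cr2, Hrg and Spint1 lay in the dimmest decile of signal, where 48.1% of genes were called lower. C1qb and Itih1 (on 7 arrays) lay in decile 2 from the bottom, where 32.9% were. Cfhr2 lay in decile 4, where 3.49% were. The adjusted p alone was passed by 2 of the 69 upwards and 13 downwards, beside 2.65% and 17.9% of all genes, so both were near the background.

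The scaling moved the sign of 11 members, and the number below 0 went from 15 to 4 with spike-in scaling and to 4 when the arrays were left unscaled. Spike-in scaling moved the median of all genes from -0.064 to 0.50, and leaving the arrays unscaled moved it to 0.67, while the median of the members went from 0.026 to 0.60 and 0.76. Under those settings 17 and 25 members were called higher, beside 31.9% and 66.8% of all genes, and 1 (F9) and 0 lower, beside 1.32% and 0.566%. Quantile normalization called 1 member higher, Fga, and 1 lower, F9, beside 2.00% and 3.82% of all genes, and cyclic loess called the same 1 and 1, beside 2.15% and 3.43%. With no filter on dim probes 0 members were called higher and 13 lower, beside 0.389% and 29.0% of all genes, and at a 2-fold threshold 0 and 2, beside 0.0419% and 2.68%. Averaging the probes of each gene gave 0 and 4, beside 0.489% and 10.1%, background subtraction with an offset of 50 gave 0 and 4, beside 0.189% and 9.55%, and normexp 0 and 0, beside 0.00% in each direction. Testing only probes well above background on all 8 arrays left 0 members called higher and 3 lower, beside 0.523% and 9.06% of all genes, since Klkb1 was then not tested.

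**Figure D4:**
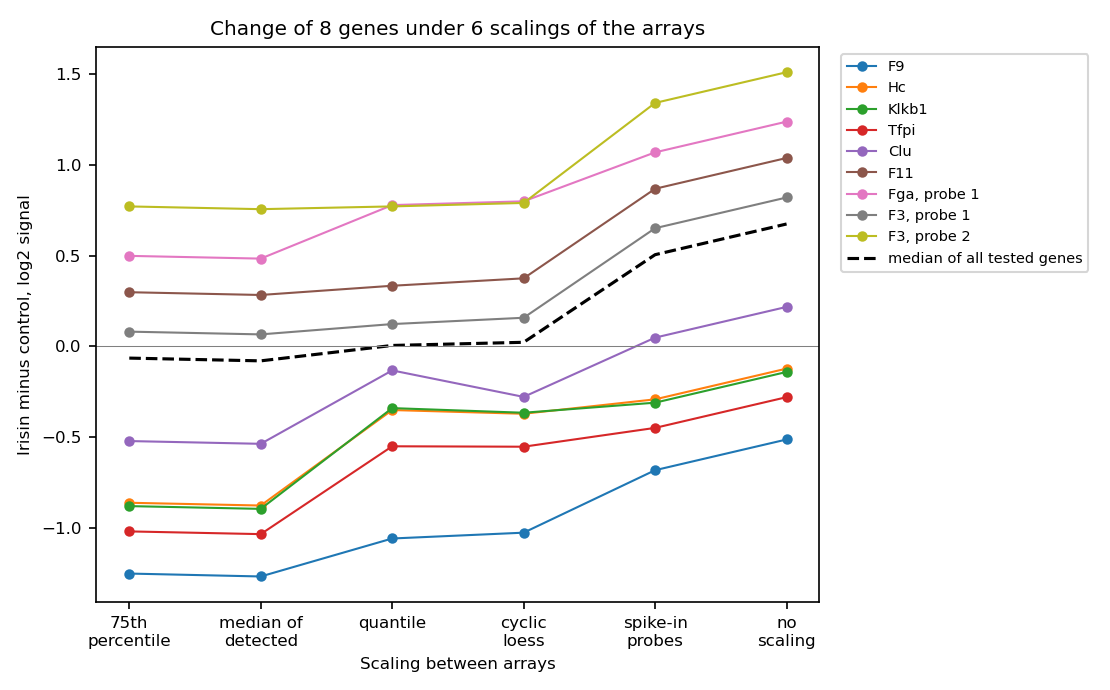
Change (irisin minus control, log2) of 9 probes of 8 members under 6 scalings between arrays, with the median of all tested genes dashed. F9 stays at the bottom and the second F3 probe and Fga at the top, with Fga the higher under quantile normalization and cyclic loess only. Hc, Klkb1 and Tfpi approach 0 and Clu crosses it.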

How the data were processed

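Gene expression was measured in 8 AML12 samples, 4 per group, grouped by their labels. Cy3-labeled cRNA was hybridized to one-color Agilent arrays, and the scans were read by the authors in Feature Extraction 12.0.3.1, with background subtraction and a correction of spatial trends. The deposited signal intensity is linear and not normalized between arrays. The deposited value table equals the mean processed signal per probe to within 0.000500%.

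Control spots and marked spots (at most 0.463% per array) were left out, spots of a probe were averaged, and the log2 of the deposited intensity was set against the array's 75th percentile. On each array 59.5% to 64.1% of probes were well above background, and none was saturated. The number of arrays limits the precision. Probes were named by accession through RefSeq (GRCm38.p6), giving 72.7% of probes a gene. The files use mm9, so array coordinates are not printed. limma 3.58.1 in R 4.3.3 was fitted to 24091 probes with Benjamini-Hochberg adjustment over all of them, and the brightest tested probe stood for its gene. Single values were tested with two-sided exact permutation.

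The members and lists were chosen with earlier results of these data known. Named with full values are members called, members with an unadjusted p under 0.05 on their brightest tested probe, and the called probe of members whose probes disagree in call. Probes that disagree in sign alone are given by their changes. C3, F10 and other members given by array were chosen after their values were seen. Alternatives were other background corrections, scalings, filters, probe rules, thresholds and tests, the replicate block, and single arrays left out. Normexp, planned on mean spot signals, used the median ones. The fit was tested on simulated data with known changes. These held no shift between groups that depended on signal, so that test cannot address such a shift. Python 3.11.15 read the files.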

Additional observations from a re-analysis of the deposited data

Results flagged for a closer look

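Among 110 sets of 4 arrays, covering the 46 members and the 9 second tested probes in both groups, 8 held an array whose gap to the rest was past the 95% critical value of Dixon's test, which chance gives in about 1 in 20. Of these, 3 belong to genes called lower. Hc was at -5.413 on control replicate 4, with the others from -5.813 to -5.753, and at -7.195 on irisin replicate 1, with the others from -6.382 to -6.284. Tfpi was at -5.869 on control replicate 1, with the others from -5.226 to -5.181. Without these arrays both genes stayed past both thresholds. Of the other tested genes, C8g was at -2.511 on irisin replicate 3, with the others from -2.180 to -2.155, and Cd59a was at 0.4784 on irisin replicate 4, with the others from 0.3029 to 0.3283. The remaining arrays were of genes near background, Cfd at -8.984 on control replicate 4, C9 at -9.276 on irisin replicate 2 and F7 at -7.921 on irisin replicate 3.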

How the results depend on the processing

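The 4 members called lower became 1 with quantile normalization, cyclic loess or spike-in scaling, beside 3.82%, 3.43% and 1.32% of all genes. They became 0 with no scaling or normexp, beside 0.566% and 0.00%. A 2-fold threshold left 2, beside 2.68%, and no filter on dim probes gave 13 of 46, beside 29.0%. The 0 called higher became 1 with quantile normalization or cyclic loess, beside 2.00% and 2.15%. The count was 17 with spike-in scaling (31.9% of all genes), 25 with no scaling (66.8%) and 2 at the adjusted p alone (2.65%). The median change of 0.026 was 0.18 with normexp, 0.60 with spike-in scaling, 0.76 with no scaling and -0.11 with background subtraction and an offset of 50, which was added after seeing the data. The cause of these moves was not tested. Without single arrays the counts were 4 to 4 lower and 0 to 0 higher and the median -0.012 to 0.055. Averaging the probes of each gene also gave 4 lower, with Serpina10 in place of Tfpi. With only probes well above background on all 8 arrays, 3 were lower (9.06% of genes) and 0 higher, as Klkb1 was not tested. The methods' test gave 0 higher and 4 lower.

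With no scaling the sign turned for 14 probes, those of C1ra (0.68), C3 (0.545), Clu (0.22), Serpina10 (0.52), the second probe of C3 (0.63), the second probe of C8g (0.071), Cd55 (0.60), Serping1 (0.62), F8 (0.70), Kng1 (0.64), Fgg (0.72), Proc (0.64), Serpinf2 (0.74) and the second probe of Serpinf1 (0.70). With normexp it turned for Hc (0.43), the second probe of C8g (0.26), F9 (0.021), Klkb1 (0.43), Tfpi (0.41) and the second probe of Serpina10 (0.44), and for 12 other probes, called under neither setting, which came to between -0.13 and 0.62. Deviations of same-numbered arrays had correlations of -0.35 to 0.17, and control replicates 1 and 4 matched the irisin array of their own number best. With 4 arrays per group these values cannot decide whether the numbers pair the samples. The replicate block gave 0 members higher and 4 lower, with an adjusted p of 0.0543 for F11.

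Signal over background limits the 14 members not tested and the 13 in the dim deciles, and slide and treatment cannot be told apart.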
